A study of Mus musculus with 8 samples.

Results

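The epidermal growth factor (EGF) ligands and their ERBB receptors were followed in single cells of 2 mouse pancreatic tumors. The members were taken by symbol from both count tables. They are 6 ligand genes (Areg, Ereg, Hbegf, Tgfa, Btc and Epgn) and 3 receptor genes (Egfr, Erbb2 and Erbb3), 9 of the 27775 gene rows in each table. All 9 had at least 1 UMI in the medium-size tumor and 8 had at least 1 in the large-size tumor, where Epgn was listed at 0. The cells that carried each transcript were then named from marker genes, with the 9 members and the genes of their signaling pathway kept out of the clustering.

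Both tumors were pancreatic ductal adenocarcinomas of untreated KPC mice, whose genotype includes the allele LSL-Trp53R172H/+ and the Cre transgene Pdx-1-Cre. Pdx1 is active in the early pancreas and in the neighbouring foregut, so alleles that depend on Cre are switched on in epithelial cells of that origin and in their descendants. The mouse ages were not given in the labels. Per tumor, 4 technical replicates were pooled into a single count table, so each tumor size stands for 1 sample and no test between the sizes was possible. Dissociated cells were captured with the 10x Genomics Chromium kit (v2), which counts unique molecular identifiers (UMIs), each standing for 1 captured mRNA molecule. One tumor was labelled medium size and the other large size, and they are called the medium tumor and the large tumor here. The medium tumor had 2812 cells and 20301669 UMIs (median 5456.5 per cell). The large tumor had 1533 cells and 2239012 UMIs (median 1037), so its values carry wider intervals. Levels are given as CPM, the UMIs of a gene per 1000000 UMIs of a group of cells, with exact 95% Poisson intervals that cover counting error only. The tumors shared 5 cell barcodes. No batch other than the tumor itself was named, so tumor size, animal, library and depth cannot be told apart.

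The ligands of this family are made as membrane proteins and are cut free by proteases such as ADAM17. Areg, Ereg, Tgfa, Epgn, Hbegf and Btc proteins all bind the EGF receptor, and epiregulin, HB-EGF and betacellulin are also known as ligands of ERBB4. ERBB2 has no known ligand of its own and ERBB3 has a weak kinase, so both work mainly in pairs with other receptors of the family. The receptors pass their signal through adaptor proteins to RAS, the MAP kinases and PI3 kinase. In the pancreas, acinar cells are known to turn duct-like when exposed to TGF-alpha.

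Of the 6 ligand genes, 4 are neighbours on chromosome 5 of GRCm38, in the order Epgn (91027464 to 91035215), Ereg (91074622 to 91093646) and Areg (91139599 to 91148432) on the forward strand and Btc (91357261 to 91402994) on the reverse strand, over 375.531 kb. Areg starts 45952 bases after the end of Ereg, and Btc lies another 208828 bases on. RefSeq promoter windows of the same assembly (GRCm38.p6) were found for 6 of the 9 members. The windows of Areg and Btc are shown because these neighbours differed in the cells that carried them. Each is the 250 bases before the RefSeq start in the direction of the gene, chr5:91139349-91139598 on the forward strand for Areg and chr5:91402995-91403244 on the reverse strand for Btc. Capitals mark every match, on either strand, to the cAMP response element TGACGTCA and the TATA box TATAAA, and these letters were not found in the Btc window.
Areg: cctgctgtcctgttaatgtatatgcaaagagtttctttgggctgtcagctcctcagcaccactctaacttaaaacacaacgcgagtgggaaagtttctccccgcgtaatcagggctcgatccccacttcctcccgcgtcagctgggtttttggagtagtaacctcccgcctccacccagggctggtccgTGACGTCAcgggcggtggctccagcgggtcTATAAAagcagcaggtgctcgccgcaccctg
Btc: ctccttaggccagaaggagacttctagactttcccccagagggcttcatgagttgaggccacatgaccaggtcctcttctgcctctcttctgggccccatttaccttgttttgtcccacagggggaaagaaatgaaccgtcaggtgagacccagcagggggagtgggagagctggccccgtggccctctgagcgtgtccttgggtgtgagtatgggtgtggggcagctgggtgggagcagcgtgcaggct
The cAMP response element in the Areg window begins 61 bases and the TATA box 31 bases before the start. TGACGTCA occurred in 508 (1.55%) and TATAAA in 4063 (12.4%) of 32851 promoter windows of that length. The matches describe letters only, and no binding was measured.

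The other members lie apart. Tgfa lies on chromosome 6 (86195223 to 86275719), Hbegf on chromosome 18 (36504927 to 36515805), Egfr on chromosome 11 (16752203 to 16918158), Erbb2 also on chromosome 11 (98412470 to 98437716) and Erbb3 on chromosome 10 (128567523 to 128589652). Positions are those of whole genes, since 3′-end counts are given per gene.

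The cell classes were named without reading the members. In the medium tumor, 2334 cells in 7 clusters were epithelial-like, 237 monocyte/macrophage-like, 67 stromal-like and 38 endothelial-like. A further 74 cells with mesothelial and stromal markers (cluster 9) and 62 cells with epithelial and macrophage markers together (cluster 11) were left unnamed. In the large tumor, 1201 cells in 6 clusters were epithelial-like, 253 monocyte/macrophage-like, 50 stromal-like and 11 endothelial-like, and 18 cells stayed unnamed. Within the epithelial-like cells of the large tumor, cluster 4 carried 8 of 10 enterocyte markers and cluster 6 carried 6 of 8 goblet markers, so the comparison of the tumors is also given without them. Cluster 6 of the medium tumor and cluster 1 of the large tumor were called epithelial-like from only 3 of the 11 epithelial markers. Free RNA from broken cells gives every droplet some UMIs of abundant genes. The measure of it was the level of the 11 epithelial markers in monocyte/macrophage-like cells, which was 4.78% to 10.7% of the epithelial-like level in the medium tumor (median 6.50%) and 0 to 18.7% in the large tumor (median 4.96%). Droplets with more than 1 cell would add to the same UMIs, and the sources were not told apart.

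**Figure D1:**
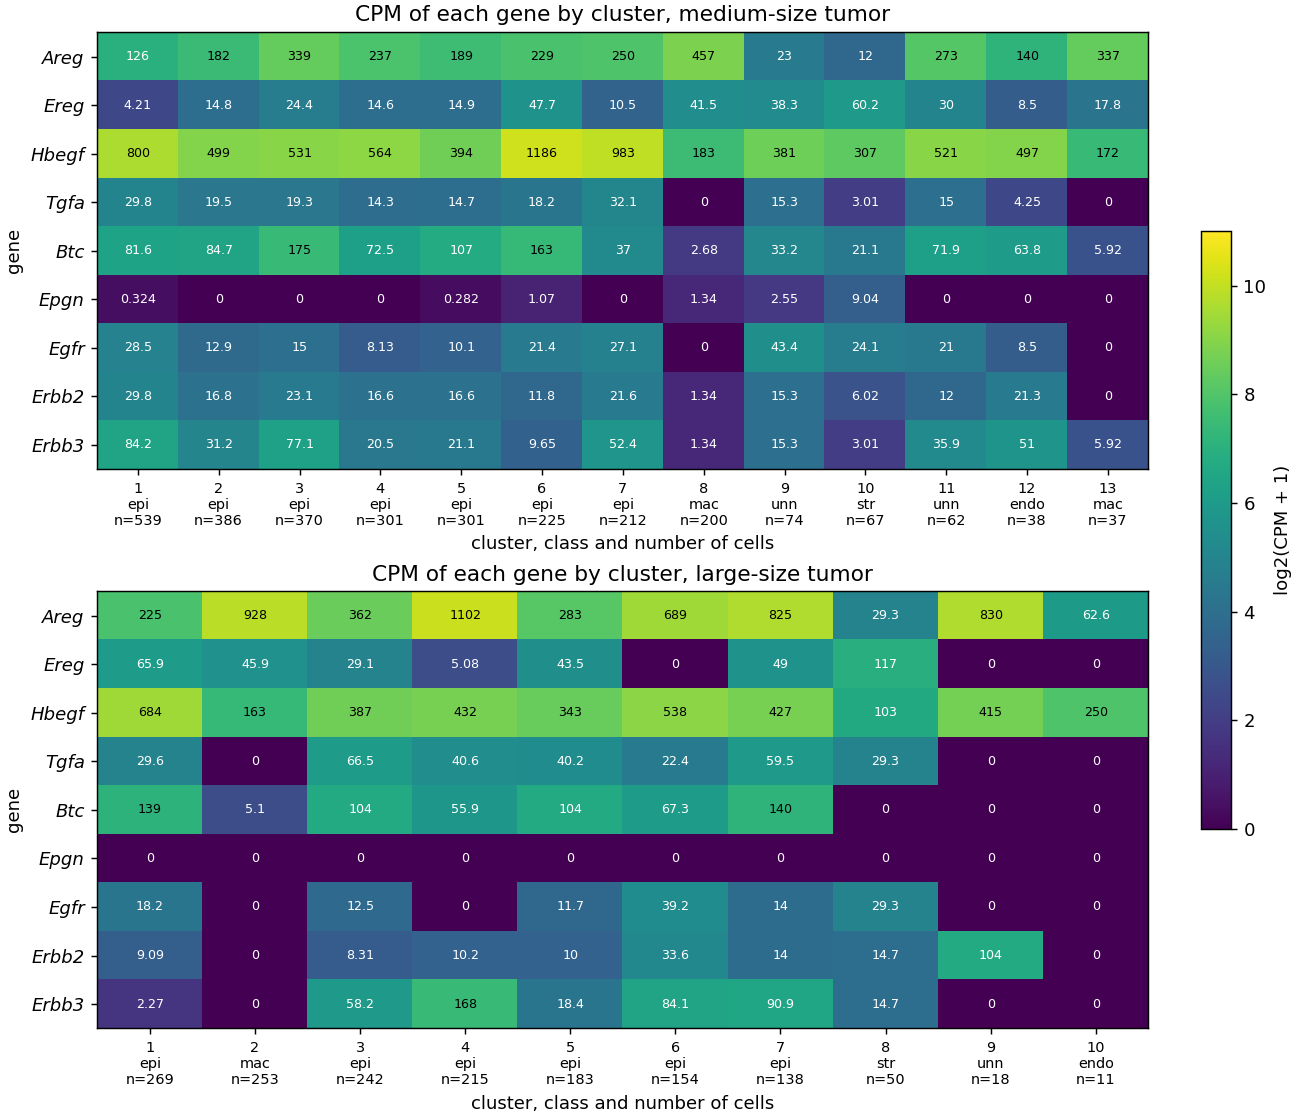
CPM of the 9 members (rows) in each cluster (columns, with class and number of cells; epi, epithelial-like; mac, monocyte/macrophage-like; str, stromal-like; endo, endothelial-like; unn, unnamed) of the medium and the large tumor, colored on a log2(CPM + 1) scale with the CPM printed in each tile. Areg was at 457 CPM in macrophage-like cluster 8, where Tgfa and Egfr were at 0, and at 12.05 CPM in stromal-like cluster 10.

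Areg, which encodes amphiregulin, was present in both epithelial-like and monocyte/macrophage-like cells and nearly lacking in stromal-like cells. In the medium tumor, its level was 214.3 CPM (207.6 to 221.2) in epithelial-like cells and 434.6 CPM (393.0 to 479.5) in monocyte/macrophage-like cells. The large tumor had 480.0 CPM (449.7 to 511.9) and 927.7 CPM (797.8 to 1073) in these classes. The macrophage-like level was thus 2.03 times (1.82 to 2.25) the epithelial-like level in the medium tumor and 1.93 times (1.64 to 2.27) in the large tumor, with intervals that did not overlap between the classes in either tumor. Stromal-like cells had 4 Areg UMIs (12.05 CPM, 3.28 to 30.9) and 2 Areg UMIs (29.3 CPM, 3.55 to 106.0) in the medium and large tumors. Endothelial-like cells of the medium tumor lay between, at 140.3 CPM, and their summed epithelial markers stood at 35.4% of the epithelial-like level.

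Areg UMIs were unevenly spread over the cells of both classes. Of 237 macrophage-like cells in the medium tumor, 70 had an Areg UMI, with up to 39 in 1 cell, and at this depth a cell without one may still hold the transcript. The 10% of cells richest in Areg held 74.6% of its UMIs in macrophage-like and 59.0% in epithelial-like cells, and 74.2% and 60.7% in the large tumor, at unequal depths and with no test of the difference. In epithelial-like cells of the medium tumor, 1104 of 2334 had an Areg UMI, with 3.51 UMIs per positive cell against 5.69 in the macrophage-like cells. When every cell was thinned to 2500 UMIs, the share with an Areg UMI was 27.5% (25.7 to 29.3, exact binomial) of epithelial-like and 24.9% (19.5 to 30.9) of macrophage-like cells, so the shares overlapped while the levels did not. Not thinned, the shares were 47.3% (median depth 5970 UMIs) and 29.5% (median depth 3511 UMIs). Thinned to 2500 UMIs, 2.99% (0.364 to 10.4) of stromal-like cells had one. In macrophage-like cells without a single UMI of the 11 epithelial markers, Areg was at 498.2 CPM (405.8 to 605.3; 59 cells), against 416.6 CPM (370.5 to 466.7; 178 cells) where such a UMI was present. These values in the large tumor were 1006 CPM (859.6 to 1169; 218 cells) and 462.5 CPM (246.3 to 790.9; 35 cells). The intervals overlapped in the first tumor and not in the second, where the cells that lacked epithelial markers were the higher ones.

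Ereg, which encodes epiregulin, had its highest class level in stromal-like cells. In the medium tumor it stood at 17.2 CPM (15.4 to 19.3) in epithelial-like, 37.1 CPM (25.7 to 51.9) in monocyte/macrophage-like and 60.2 CPM (36.8 to 93.0) in stromal-like cells. The intervals of the macrophage-like and stromal-like cells overlapped, and both lay above that of the epithelial-like cells. The stromal-like level was 3.49 times (2.10 to 5.49) the epithelial-like one and rested on 20 UMIs. Ereg in the large tumor was at 39.7 CPM (31.3 to 49.6), 45.9 CPM (21.0 to 87.1) and 117.4 CPM (50.7 to 231.3) in the same classes, and the stromal-like to epithelial-like ratio was 2.96 (1.23 to 6.12) on 8 stromal-like UMIs. The epithelial-like and macrophage-like intervals overlapped there. Areg and Ereg, neighbours on the chromosome, therefore differed in stromal-like cells, where Areg was at 5.62% and 6.11% of its epithelial-like level in the medium and large tumors.

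Hbegf, which encodes heparin-binding EGF-like growth factor, had 12636 UMIs in the medium tumor and was found in every named class. In the medium tumor it stood at 659.2 CPM (647.5 to 671.2) in epithelial-like, 497.5 CPM (411.4 to 596.2) in endothelial-like, 307.3 CPM (250.5 to 373.0) in stromal-like and 181.3 CPM (154.8 to 211.1) in monocyte/macrophage-like cells. These 4 intervals did not overlap. The macrophage-like level was 27.5% (23.4 to 32.1) of the epithelial-like level, above the 4.78% to 10.7% of the epithelial markers. Summed epithelial markers of the stromal-like cells were at 11.1% of the epithelial-like level, while their Hbegf was at 46.6%. Those markers stood at 35.4% in the endothelial-like cells, and their part in the Hbegf level was not tested. Hbegf in the large tumor was at 465.1 CPM (435.2 to 496.5) in epithelial-like, 163.1 CPM (111.6 to 230.3) in macrophage-like and 102.7 CPM (41.3 to 211.6) in stromal-like cells, and the last 2 intervals overlapped. The stromal-like level there rested on 7 UMIs, at 22.1% (8.85 to 45.7) of the epithelial-like one, beside summed epithelial markers at 17.1%.

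Tgfa and Btc, which encode transforming growth factor alpha and betacellulin, had most of their UMIs in epithelial-like cells. Tgfa was at 20.4 CPM (18.4 to 22.6) in epithelial-like cells of the medium tumor and at 42.3 CPM (33.6 to 52.5) in those of the large tumor. No Tgfa UMI occurred in the macrophage-like cells of either tumor, which allows up to 3.28 CPM in the medium tumor and up to 15.3 CPM in the large tumor. Stromal-like cells had 1 Tgfa UMI in the medium tumor and 2 in the large tumor, the latter at 29.3 CPM or 69.4% (8.27 to 258.9) of the epithelial-like level, so a difference between these classes was not detectable in the large tumor. Btc was at 102.0 CPM (97.4 to 106.8) and 108.8 CPM (94.6 to 124.5) in epithelial-like cells of the medium and large tumors. Its 3 UMIs in macrophage-like cells of the medium tumor came to 3.21% (0.662 to 9.40) of the epithelial-like level, below the lowest share of the 11 epithelial markers (4.78%) with an interval that includes it, and the part of free RNA in them was not tested. Btc in the stromal-like cells of the medium tumor rested on 7 UMIs (21.1 CPM, 8.48 to 43.5). Endothelial-like cells there had 15 Btc UMIs (63.8 CPM, 35.7 to 105.2), with an interval overlapping the epithelial-like one. Their summed epithelial markers were at 35.4% of the epithelial-like level, and the part of free RNA was not tested. Epgn, which encodes epigen, had 9 UMIs in the medium tumor, 3 of them in stromal-like cells, and none in the large tumor, which allows up to 1.34 CPM.

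**Figure D2:**
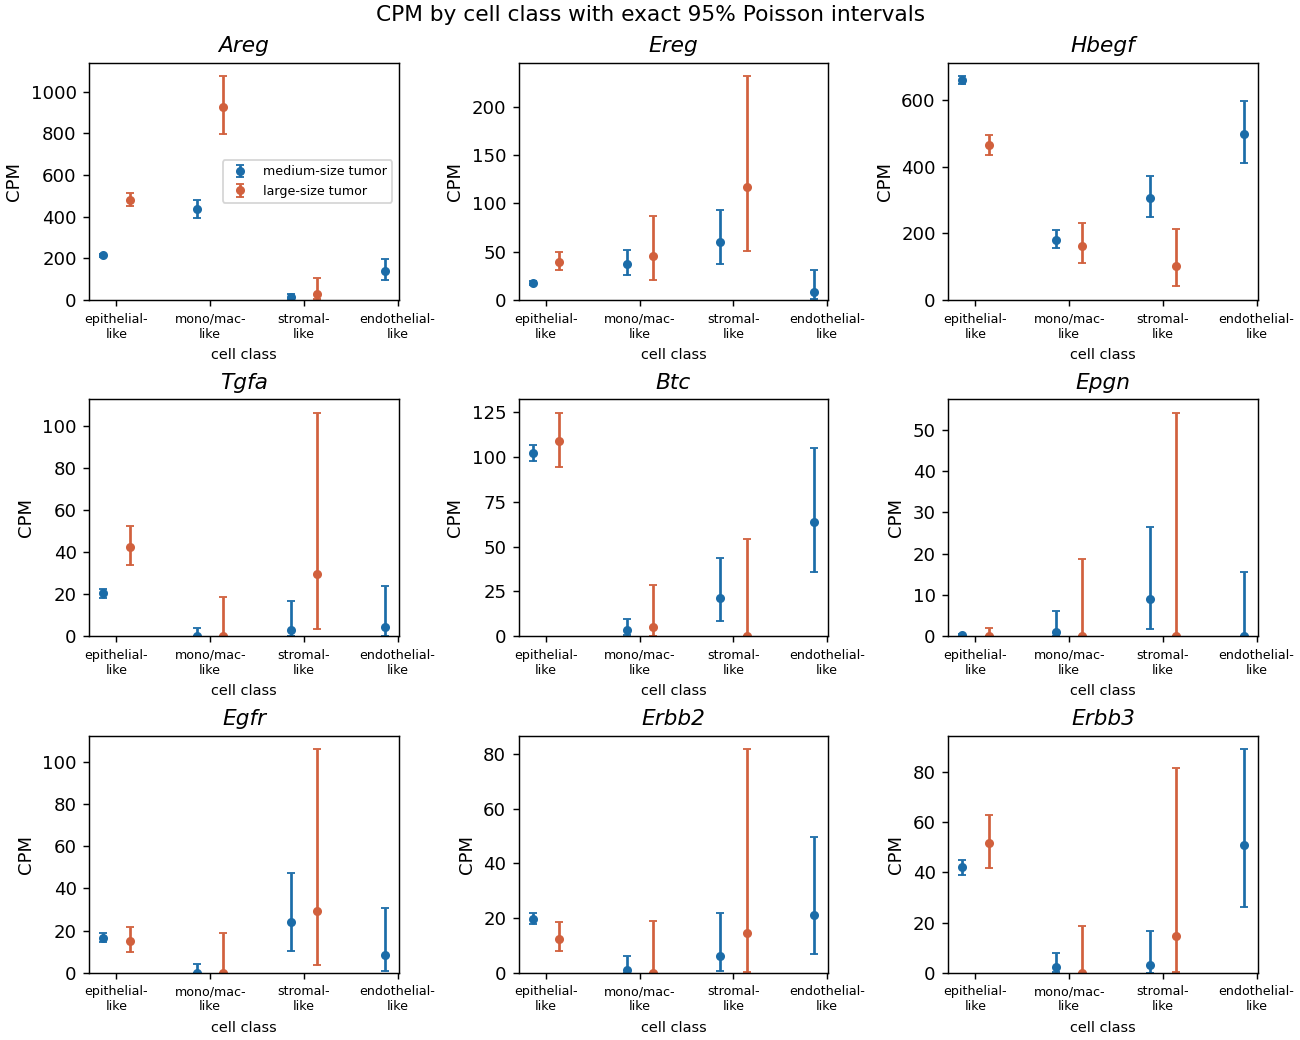
CPM (vertical axes, each from 0) of the 9 members in 4 cell classes of the medium tumor (blue) and the large tumor (orange), with exact 95% Poisson intervals; endothelial-like cells of the large tumor (11 cells) are not drawn. Areg was higher in monocyte/macrophage-like than in epithelial-like cells of both tumors, while Tgfa and the 3 receptors were at or near 0 in the former.

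The 3 receptors were present in epithelial-like cells and at or near 0 UMIs in the macrophage-like cells. Macrophage-like cells held 0 Egfr, 1 Erbb2 and 2 Erbb3 UMIs in the medium tumor, out of 915700 UMIs, and none in the large tumor, out of 196180. In the medium tumor this depended on how the class was drawn. A coarser clustering (resolution 0.4) put 298 cells in it. The macrophage-like to epithelial-like log2 ratios were then -1.38 (Egfr), -2.03 (Erbb2) and -1.91 (Erbb3), against -3.93, -3.18 and -3.68. Erbb3 was at 42.1 CPM (39.1 to 45.2) in epithelial-like cells of the medium tumor and at 51.6 CPM (41.95 to 62.7) in those of the large tumor. The 2 macrophage-like UMIs of Erbb3 correspond to 5.19% (0.628 to 18.8) of the epithelial-like level, within the range of the epithelial markers. Erbb2 was at 19.7 CPM (17.7 to 21.8) in epithelial-like, 6.02 CPM (0.730 to 21.8) in stromal-like and 1.09 CPM (0.0276 to 6.08) in macrophage-like cells of the medium tumor. Endothelial-like cells of that tumor had 5 Erbb2 UMIs (21.3 CPM, 6.90 to 49.6), with an interval overlapping the epithelial-like one. The part of their raised epithelial markers in this value was not tested. In the large tumor, Erbb2 in epithelial-like cells was at 12.4 CPM (7.93 to 18.4), and the 0 UMIs of the macrophage-like cells allow up to 15.3 CPM, so no difference was detectable there at this depth. The same limit holds for Egfr, which was at 15.0 CPM in epithelial-like cells of that tumor.

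Egfr, the receptor that binds all 6 ligands, was not limited to the epithelial-like cells. It stood at 16.6 CPM (14.8 to 18.6) in epithelial-like and 24.1 CPM (10.4 to 47.5) in stromal-like cells of the medium tumor, with overlapping intervals. The 74 unnamed cells with mesothelial markers (cluster 9) had the highest Egfr level of the 13 clusters, 43.4 CPM (25.3 to 69.5) from 17 UMIs. This interval overlapped that of epithelial-like cluster 1 (28.5 CPM, 22.8 to 35.1). The epithelial markers of cluster 9 were at 24.9% of the epithelial-like level. Egfr in the large tumor was at 15.0 CPM (10.0 to 21.5) in epithelial-like and 29.3 CPM (3.55 to 106.0) in stromal-like cells, the latter from 2 UMIs. Endothelial-like cells of the medium tumor had 12 Erbb3 UMIs (51.0 CPM, 26.4 to 89.1) beside their raised epithelial markers, whose part in this value was not tested.

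**Figure D3:**
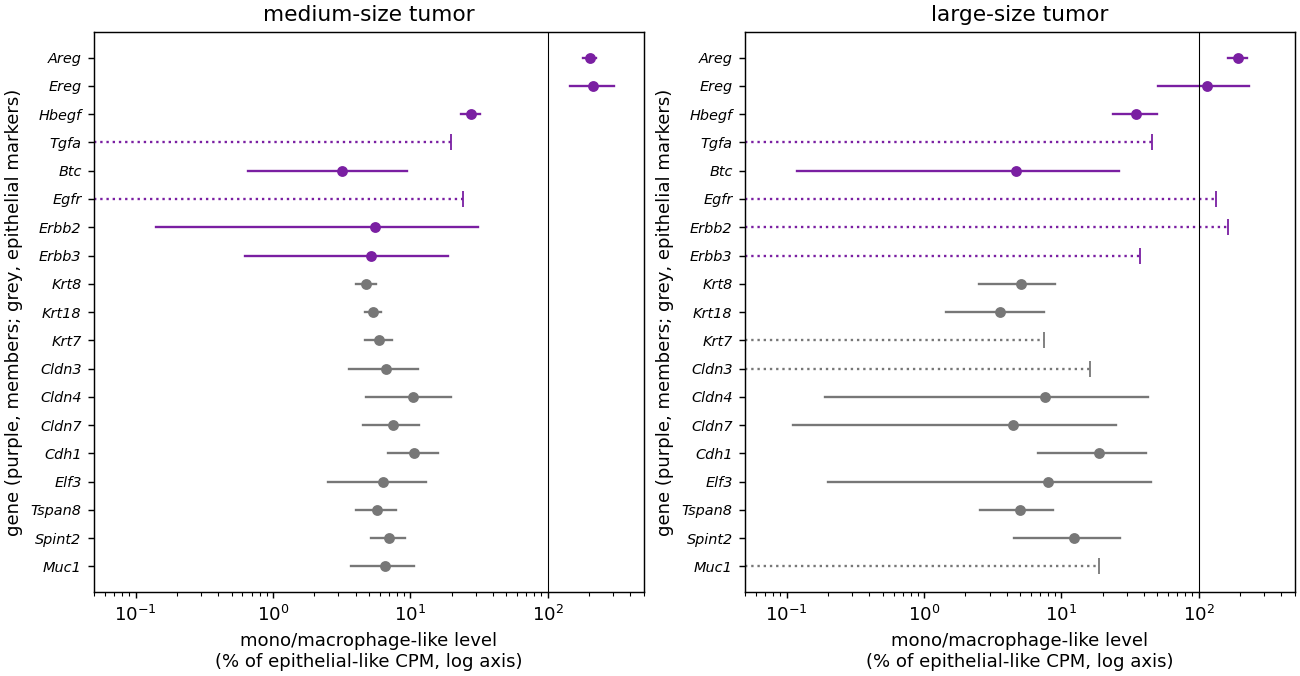
Level in monocyte/macrophage-like cells as a percentage of the epithelial-like level (log axis, exact 95% intervals) for 8 members (purple) and the 11 epithelial markers (grey) in each tumor; dotted lines end at the upper bound of genes with 0 UMIs in macrophage-like cells. Areg and Ereg lay above 100% and Hbegf at 27.5% in the medium tumor, while Erbb2 and Erbb3 lay within the range of the markers and Btc, at 3.21%, below it.

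Set against all other cells of the tumor, 5 of the 8 members with at least 50 UMIs were at least 2-fold higher in epithelial-like cells of the medium tumor, where 12.1% of 11205 genes were. These were Hbegf (2.06-fold), Tgfa (3.46-fold), Btc (3.63-fold), Erbb2 (2.41-fold) and Erbb3 (2.81-fold). Ereg was at 0.470 (0.367 to 0.608) of the level in other cells, at least 2-fold lower, as were 12.1% of genes. In the large tumor, Hbegf, Tgfa, Btc and Erbb3 (4 of 6 members tested) were at least 2-fold higher in epithelial-like cells, against 18.0% of 4829 genes, and no member was 2-fold lower, against 9.34%. Both counts dropped to 1 under a finer clustering, in which fewer cells kept the name epithelial-like. They dropped to 2 in the medium and 1 in the large tumor without the 5% of cells with the highest Scrublet doublet scores, and the count of the large tumor to 1 when each cell was classed from its own markers. The Scrublet alternative clustered the remaining cells anew, and 330 and 272 of them were unnamed and counted among the other cells. Removal and renaming of cells can thus not be told apart there. Between macrophage-like and epithelial-like cells of the medium tumor, 2 of 8 members (Areg and Ereg) were at least 2-fold higher in the macrophage-like cells, against 11.7% of genes, and the other 6 at least 2-fold lower, against 26.7%. Areg lay close to the threshold and was below 2-fold under 4 of 6 other ways of setting the classes, and Ereg under 1 of them. In the large tumor, 0 of 6 were higher in this comparison, against 10.5%, and 4 were lower, against 24.5%.

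The members varied to unequal extents among the 7 epithelial-like clusters of the medium tumor. Over 7320 genes with at least 200 UMIs in epithelial-like cells, the median difference between the highest and lowest of these clusters was 0.86 on the log2(CPM + 10) scale. Erbb3 (2.26), Ereg (2.02) and Btc (1.98) were past the 90th percentile of this spread, Hbegf (1.56) was at the 84.9th, Areg (1.36) at the 79.6th and Egfr (1.09) at the 67.3rd, while Erbb2 (0.87) and Tgfa (0.79) were near the median gene, at the 50.9th and 42.8th. The clusters were led by Reg genes, Tff3 and Ly6d (cluster 1), Mcpt8, Cldn6 and Hmga2 (cluster 2), gastrokines and Muc6 (cluster 3), Yap1 and Birc2 (cluster 4), cell cycle genes (cluster 5), Inhba, Bmp2 and Ptgs2 (cluster 6) and Krt17 and Tnc (cluster 7). Hbegf was at 799.8, 499.1, 530.9, 564.0, 394.4, 1186 and 983.0 CPM in clusters 1 to 7. Clusters 6 and 7 were thus the highest, at up to 3.01 times (2.81 to 3.22) the lowest, the cycling cluster 5. Ereg was at 4.21, 14.8, 24.4, 14.6, 14.9, 47.7 and 10.5 CPM in the same order, so cluster 6 had 11.3 times (6.30 to 22.1) the level of cluster 1. Btc was highest in clusters 3 (175.3 CPM) and 6 (163.5 CPM) and lowest in cluster 7 (37.0 CPM). Areg ranged from 125.9 CPM in cluster 1 to 339.0 CPM in cluster 3.

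The extremes of Erbb3 were those of Ereg in reverse, clusters 1 and 6, while cluster 3 was second highest in both genes. Erbb3 stood at 84.2, 31.2, 77.1, 20.5, 21.1, 9.65 and 52.4 CPM in clusters 1 to 7, and the level in cluster 1 was 8.72 times (5.41 to 15.0) that in cluster 6. Cluster 6 was thus the highest in Hbegf and Ereg and the lowest in Erbb3 and Erbb2 (11.8 CPM), while its Egfr, at 21.4 CPM, lay inside the range of the other clusters (8.13 to 28.5 CPM). The 11 epithelial markers of cluster 6 were at 51.9% of the level in all epithelial-like cells. Cluster 1 of the large tumor, the other cluster with only 3 epithelial markers, had the highest Hbegf (684.2 CPM) and Ereg (65.9 CPM) and the lowest Erbb3 (2.27 CPM from 1 UMI) of the 6 epithelial-like clusters. The Hbegf levels of these clusters differed by only 1.99-fold (1.67 to 2.39), at the 26.6th percentile of the log2(CPM + 10) spread of 1358 genes and so less than in the median gene, and Ereg and Erbb3 were below the minimum of 200 UMIs there. The summed epithelial markers of cluster 1 were at 67.0%. For comparison, Erbb3 in the enterocyte marker cluster 4 was at 167.6 CPM, where Areg also peaked at 1102 CPM, and no Egfr UMI was seen, which allows up to 15.2 CPM. The goblet marker cluster 6 had 0 Ereg UMIs, which allows up to 16.8 CPM.

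**Figure D4:**
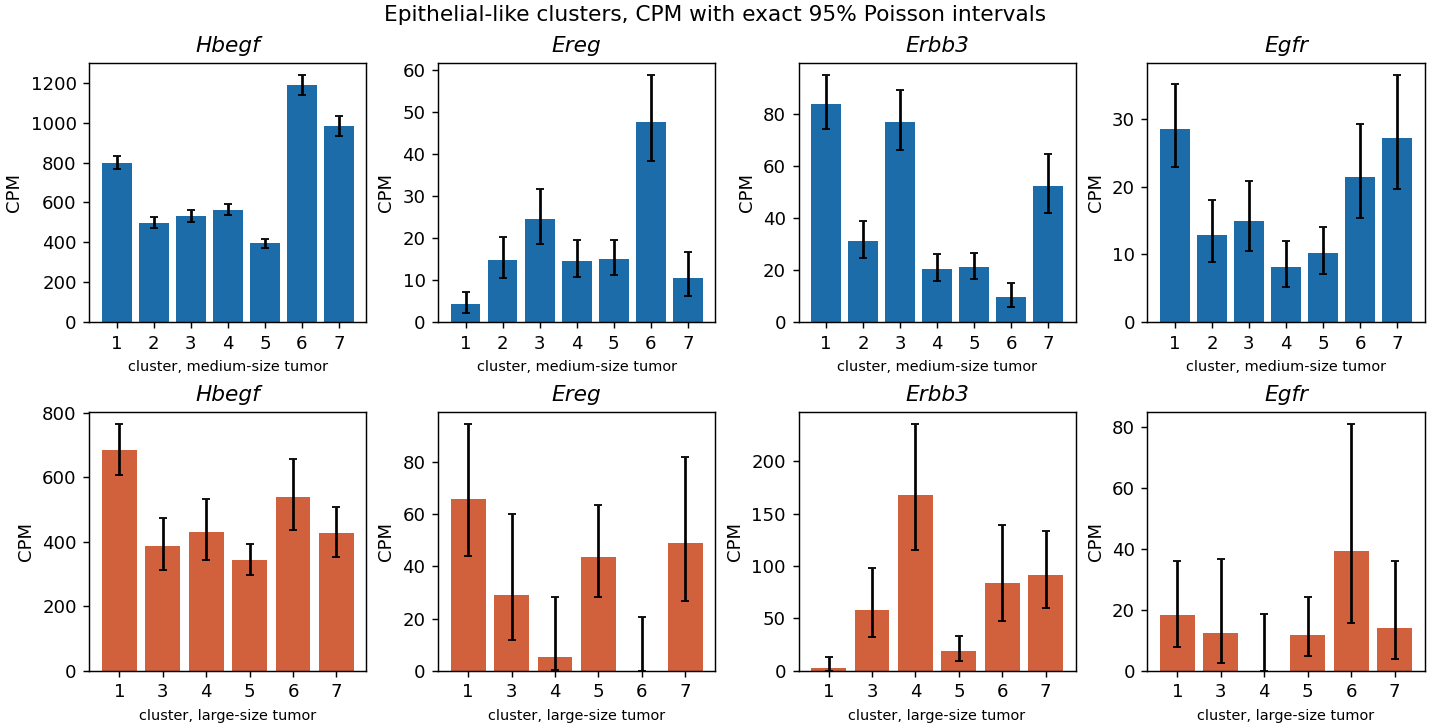
CPM of Hbegf, Ereg, Erbb3 and Egfr (bars from 0, exact 95% Poisson intervals) in the epithelial-like clusters of the medium tumor (top, 7 clusters) and the large tumor (bottom, 6 clusters). Cluster 6 of the medium tumor and cluster 1 of the large tumor had the highest Hbegf and Ereg and the lowest Erbb3 bars of their tumors.

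Across the 13 clusters of the medium tumor, Erbb2 and Erbb3 had similar profiles (Pearson r = 0.87 on log2(CPM + 10)), as did Hbegf and Tgfa (r = 0.85). Ereg and Erbb3 were opposed (r = -0.72), and so were Areg and Egfr (r = -0.61), while Areg and Ereg had r = -0.32. These values describe clusters of 1 library that share their depth and free RNA. Of 2797 genes with at least 1000 UMIs, the profile most like that of Erbb3 was Cblc (r = 0.98), followed by the epithelial surface gene Epcam (0.94). Areg was most like Lgals3 (0.92), which encodes galectin-3, Ereg most like B4galt1 (0.85), and Hbegf most like the cytokine gene Clcf1 (0.93), Clu and the transcription factor gene Sox9. Tgfa was most like Lsr (0.98), Btc most like Avpi1 (0.95), Egfr most like Nenf (0.92) and Erbb2 most like Klf5 (0.94). Summed immediate-early genes, which are known to rise when tissue is dissociated, ranged from 2549 CPM (cluster 5) to 8419 CPM (cluster 9). Their correlation with Hbegf over the clusters was 0.16, with Areg -0.34 and with Egfr 0.51.

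Ligand and receptor UMIs were seen together in a cell about as often as the product of their separate shares. With every cell thinned to 2500 UMIs, 77.7% of epithelial-like cells of the medium tumor had a UMI of at least 1 of the 6 ligands and 18.7% one of at least 1 of the 3 receptors. Both were seen in 330 of 2334 cells, or 14.1% (12.7 to 15.6), beside a product of 14.6%. The part of free RNA and of droplets with more than 1 cell in these shares was not tested. The share depends on depth, at 37.1% without thinning and 1.54% when thinned to 500 UMIs. Among macrophage-like cells, 49.4% had a ligand UMI and 0.844% (2 of 237 cells) a receptor UMI. Cluster 6 had the largest share of ligand-positive cells of the 13 clusters (92.4%), and cluster 3 the largest share with both (22.7%, 18.5 to 27.3). Areg and Hbegf were seen together in 19.4% of epithelial-like cells, against a product of 16.8%. In the large tumor, thinned to 500 UMIs, 39.6% of epithelial-like cells had a ligand UMI, 4.58% a receptor UMI and 2.16% (1.42 to 3.16) both, while no macrophage-like cell of 253 had a receptor UMI.

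The other genes of the receptor family were rare. Nrg4, a ligand of ERBB4, had 200 UMIs in the medium tumor, 194 of them in epithelial-like cells, and was highest in cluster 1 (28.2 CPM, 22.6 to 34.7). Nrg1, a ligand of ERBB3 and ERBB4, had 23 UMIs, 7 of them in the macrophage-like cells (7.64 CPM, 3.07 to 15.8). Egf had 11, Erbb4 6, Nrg2 3 and Nrg3 0 UMIs, the last of which allows up to 0.148 CPM. Of these genes, the large tumor had Nrg4 at 9 and Egf at 2 UMIs, and the other 4 at none. UMIs of Erbb4 were thus too few to say which cells carry it.

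Of the 62 further pathway genes listed, 57 had at least 50 UMIs in the medium tumor. Between macrophage-like and epithelial-like cells, 10 of them were at least 2-fold higher and 14 at least 2-fold lower in the macrophage-like cells, with 33 in between, where 11.7% of all genes were higher and 26.7% lower. Per role, the highest and lowest ratios among genes with at least 200 UMIs in these classes follow. The protease gene Adam17, which releases several of these ligands, was at 48.1 CPM in macrophage-like and 17.6 CPM in epithelial-like cells (2.73-fold, 1.94 to 3.74). Rhbdf1, which encodes a partner of ADAM17, was at 3.28 CPM from 3 UMIs and at 17.1 CPM, a ratio of 0.191 (0.0392 to 0.564). Among the adaptors, Grb2 was 2.07-fold higher (1.68 to 2.52) and Shc1 at 0.411 (0.25 to 0.639) in macrophage-like cells. The other adaptor genes past 2-fold, named after their values were seen, had fewer UMIs and larger ratios, Gab2 at 5.89-fold (3.21 to 10.3) and Gab1 at 3.04-fold (1.74 to 5.02). Pik3r1, a regulatory subunit of PI3 kinase, was 3.67-fold higher (2.84 to 4.68), and Hras was at 0.329 (0.240 to 0.440). Of the 13 feedback inhibitors, 5 were lower in macrophage-like cells, among them the phosphatase gene Dusp4 at 0.123 (0.0254 to 0.363) and Spry4, named after its values were seen, with 0 macrophage-like against 153 epithelial-like UMIs, and 2 were higher, led by the receptor ubiquitin ligase gene Cbl (2.56-fold, 1.98 to 3.27). ERK targets ranged from Ier3, 4.98-fold higher (4.71 to 5.28), to Etv4, at 0.0830 (0.0100 to 0.302) from 2 macrophage-like UMIs.

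Areg, Ereg and Tgfa were higher in the epithelial-like cells of the large tumor than in those of the medium tumor. Areg was 2.24-fold higher (2.08 to 2.41), Ereg 2.30-fold (1.77 to 2.96) and Tgfa 2.07-fold (1.61 to 2.64), so 3 of 8 members with at least 200 UMIs were at least 2-fold higher, against 5.9% of 7631 genes. No member was at least 2-fold lower, against 17.4%. Hbegf was at 0.705 (0.659 to 0.755) and Erbb2 at 0.629 (0.398 to 0.951) of the medium level. The intervals of Btc (1.07, 0.920 to 1.23), Egfr (0.899, 0.592 to 1.32) and Erbb3 (1.23, 0.985 to 1.51) included 1. The median gene lay at -0.14 on the log2 scale. Over all cells of each tumor, Areg, Ereg and Tgfa were again the 3 of 8 members at least 2-fold higher, against 5.5% of 8120 genes, with Tgfa at the threshold (1.99-fold before 1 UMI was added to each sum). Without the enterocyte and goblet marker clusters, Areg was 1.76-fold higher (1.61 to 1.92), Ereg 2.82-fold (2.16 to 3.63) and Tgfa 2.19-fold (1.67 to 2.84), which left 2 of 8 members at least 2-fold higher against 5.68% of genes, and Erbb3 went from above to below the medium level (0.790, 0.585 to 1.05).

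In the macrophage-like cells, Areg was 2.13-fold higher (1.78 to 2.55) in the large tumor, the single member with at least 200 UMIs in that comparison, where 9.65% of 777 genes were at least 2-fold higher. With cells of both tumors thinned to 500 UMIs, the share with an Areg UMI was 9.17% (8.03 to 10.4) and 19.8% (17.6 to 22.2) of epithelial-like cells in the medium and large tumors, and 13.1% (9.06 to 18.0) and 20.6% (15.7 to 26.1) of macrophage-like cells. The intervals for macrophage-like cells overlapped and those for epithelial-like cells did not. Shares with an Hbegf UMI went from 25.4% (23.6 to 27.2) of the epithelial-like cells of the medium tumor to 19.2% (17.0 to 21.6) in the large tumor.

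**Figure D5:**
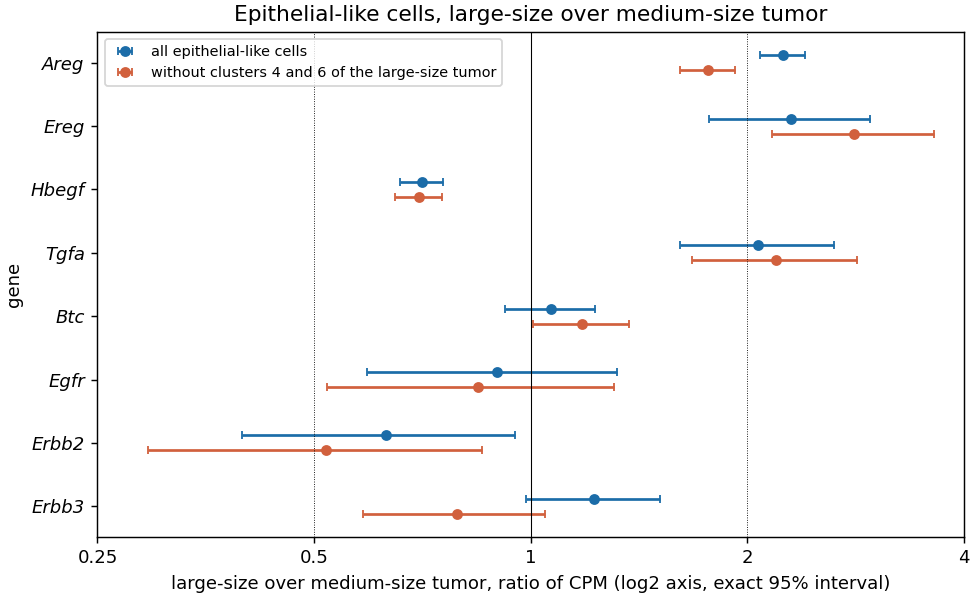
Ratio of CPM in epithelial-like cells, large over medium tumor (log2 axis, exact 95% intervals that cover counting error only), for 8 members over all epithelial-like cells (blue) and leaving out clusters 4 and 6 on the side of the large tumor (orange); dotted lines mark 2-fold. Areg lay at 2.24 with all of these cells and at 1.76 when both clusters were left out, and Hbegf lay below 1 in both.

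Of the pathway genes, 51 had at least 200 UMIs in epithelial-like cells of both tumors together, and 4 of them were at least 2-fold higher and 6 at least 2-fold lower in the large tumor, where 5.9% of all genes were higher and 17.4% lower. Without the enterocyte and goblet marker clusters these counts were 3 and 5. Feedback inhibitors made up 3 of the 4 higher genes. Errfi1, which encodes an inhibitor of EGFR and ERBB2, was at 461.5 CPM against 116.4 CPM (3.96-fold, 3.66 to 4.29), and 3.24-fold higher (2.95 to 3.55) without the enterocyte and goblet marker clusters. The others were Spry1 (3.04-fold, 2.21 to 4.13) and Dusp5 (2.55-fold, 2.29 to 2.84), both named after their values were seen. None of the 10 feedback inhibitors tested was 2-fold lower. ERK targets ranged from Fosl1 (2.12-fold, 1.79 to 2.51, but 1.92-fold, 1.57 to 2.33, without these clusters) to Etv4, at 0.0784 (0.0213 to 0.202). No immediate-early gene was 2-fold higher, and 3 of 10 were at least 2-fold lower (4 of 10 without these clusters), beside the 17.4% of all genes, with Fosb lowest at 0.331 (0.289 to 0.377).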

How the data were processed

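Single-cell UMI counts of 2 KPC tumors were analysed. A further part of the genotype is not reported here. The authors aligned the reads with Cell Ranger (version not given in the sources used here) to build mm10, per the labels, and deposited whole-number UMI counts per gene and cell, not normalized, with the 4 technical replicates of a tumor pooled. How empty droplets were separated from cells is not given in the sources used here.

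Each tumor was clustered with Seurat 5.3.0 in R 4.3.3 (log normalization to 10000, 2000 variable genes, 10 principal components, resolution 0.8), leaving the 9 members and 62 pathway genes out. Scrublet (scanpy 1.11.5) called 0 cells in the medium and 9 (0.587%) in the large tumor, and none was removed, so doublets were not resolved. A cluster was named from at least 3 markers, each in at least 10% of its cells and at 25% or more of the highest cluster's level, and left unnamed where another class reached 60% of its markers or led its top 10 genes. The marker lists also covered granulocytes, dendritic, T, NK, B, smooth muscle, mesothelial, acinar, endocrine, red blood and mast cells, which named no cluster. UMIs were summed per class. Ratios have exact conditional binomial intervals. For 0 UMIs the bound given is 3 counts, which is lower than the upper end of the exact interval. For Tgfa in macrophage-like cells of the medium tumor, these are 3.28 and 4.03 CPM. In counts past 2-fold, 1 UMI was added to each sum and genes needed 50 UMIs in a tumor, or 200 over both. No test was made, because there was 1 tumor of each size and cells are not replicates. The steps were tested on simulated data.

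Members and lists were chosen with earlier results of these data known, and the naming thresholds were set after marker values had been seen. All members are named. Of the pathway list, the other family genes are named, and per role the highest and lowest genes with at least 200 UMIs in the comparisons described for that list. For each member with at least 200 UMIs, the genes of most similar profile are named. Alternatives were other resolutions, 20 components, members kept in the clustering, classes from each cell's own markers, leaving out the 5% of cells with the highest Scrublet scores, no filter, TMM scaling (edgeR 4.0.16) and other thinning. Promoters and positions came from RefSeq (GRCm38.p6) and GENCODE M21 (GRCm38). Analyses used Python 3.11.15, numpy 2.4.6 and scipy 1.17.1.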

Additional observations from a re-analysis of the deposited data

How the results depend on the processing

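The number of members at least 2-fold higher in epithelial-like than in other cells of the medium tumor was 5. It fell to 1 at resolution 1.2 and to 2 without the 5% of cells with the highest Scrublet scores. The number in the large tumor was 4, and it fell to 1 under those alternatives and when each cell was classed from its own markers. Of the alternatives added after seeing the data, leaving out the epithelial-like clusters with 3 markers gave 4 and 4, and leaving out the unnamed clusters 6 and 4. At resolution 1.2, 2107 and 928 cells kept the name epithelial-like, and 360 and 291 cells in the medium and large tumors were unnamed and counted among the other cells. Without the highest Scrublet scores, a new clustering named 2044 and 891 cells epithelial-like and left 330 and 272 unnamed, also counted among the others. The share of epithelial-like cells with a ligand and a receptor UMI, 14.1%, was 37.1% without thinning and 1.54% at 500 UMIs, as fewer UMIs per cell give fewer positive cells. The count of 3 members at least 2-fold higher in the large tumor became 2 without clusters 4 and 6, an alternative chosen after seeing the data, and stayed at 3 under the others, TMM scaling included, which moved all genes by 0.07 on the log2 scale. In the medium tumor, the log2 ratio of macrophage-like to epithelial-like Areg, 1.02, was 0.87 at resolution 0.4, 0.98 with 20 components, 0.80 with classes from own markers and 0.96 without the highest Scrublet scores, all below 2-fold, and that of Ereg, 1.14, was 0.87 with classes from own markers. The direction was the same in all 84 values of macrophage-like over epithelial-like cells and in 71 of 72 values between tumors, the exception being Erbb3 without clusters 4 and 6. Sizes moved, as at resolution 0.4 in the medium tumor. There the macrophage-like to epithelial-like log2 ratio went from -3.93 to -1.38 for Egfr, -3.18 to -2.03 for Erbb2 and -3.68 to -1.91 for Erbb3. It went from -4.55 to -2.24 for Btc and -4.23 to -2.09 for Tgfa. Erbb3 in the large tumor went from -3.35 to -1.64 with classes from own markers. No paired analysis was possible because the technical replicates are pooled in 1 table per tumor, and for the same reason no replicate could be left out. Depth limits the large tumor, where a count of 0 in macrophage-like cells allows up to 15.3 CPM.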
